A study of Mus musculus with 6 samples.

Results

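The genes described here make and guard proteins in the endoplasmic reticulum (ER) of the mouse aortic arch, the curved first stretch of the aorta, where atherosclerotic plaque forms early. They were taken as a fixed list of 35 gene symbols and looked up by Ensembl identifier among the 14298 genes listed, and all 35 were found. The list holds 9 folding chaperones, cochaperones and secreted stress proteins, 5 lectin chaperones and disulfide isomerases, 3 stress sensors, 5 transcription factors and stress effectors, 6 genes of ER-associated degradation and 7 of translocation into the ER. The 3 knockout libraries came from ApoE-/- mice with RBPJflox/flox alleles and the Cdh5-CreERT transgene, and the 3 control libraries from ApoE-/- mice with RBPJflox/flox alleles and no recombinase. ApoE-/- mice lack apolipoprotein E and develop plaques, and RBPJ is the DNA-binding partner of Notch receptors. Cdh5-CreERT is a tamoxifen-activated recombinase driven by an endothelial promoter, so the deletion is aimed at the endothelium alone while the RNA came from the whole arch wall. Tamoxifen was given for 1 week to mice of 8 weeks, a high-fat diet followed for 6 weeks, and the labels give the strain as C57/BL6 and the animals as adult. The groups therefore differ in the presence of the recombinase as well as in the deletion.

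Proteins bound for the cell surface, the matrix or secretion enter the ER through a membrane channel, fold there with the help of chaperones, and are sent back to the cytosol for destruction when they fail. When unfolded protein builds up, 3 membrane sensors start the unfolded protein response. The sensor IRE1 (gene Ern1) splices the messenger RNA of Xbp1, the sensor ATF6 is cut into a transcription factor, and the sensor PERK (gene Eif2ak3) slows translation and favours production of the factor ATF4, which induces Ddit3. The XBP1 and ATF6 branches are known for raising chaperone and degradation genes, and the ATF4 branch for raising amino acid supply genes and, through Ddit3, genes tied to cell death. In plaques the response has been studied in macrophages, smooth muscle cells and endothelium.

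Levels are normalised CPM, that is read counts scaled to a common library size, and each is given per library or as mean ± SD with n = 3 per group. Each library is from 1 of 3 mice a group and is called by its number in the table, which does not say which labelled sample it is. A log2 fold change is the knockout mean less the control mean of log2(value + 1), a scale on which genes of low level appear to change less than they do. Unless another tool is named, adjusted p-values come from limma with Benjamini-Hochberg adjustment over all 14298 genes. Libraries held 5904504 to 10072495 reads over the listed genes. Rbpj itself stood at 193 ± 21.7 CPM in knockout arches and 189 ± 13.2 CPM in control arches, and a whole-tissue value does not check a deletion in the endothelium. Endothelial markers were present, with 10 of 10 listed genes measured and a summed level of 918 to 1373 CPM in knockout and 1139 to 1219 CPM in control libraries. Control S591 was nearer knockout S599 (chi-square per degree of freedom 15.3) and knockout S595 (21.0) than controls S592 (32.5) and S594 (34.3). Knockout S598 was further from it (39.3). S591 also had the highest summed level of 6 adipocyte markers, 1448 CPM, against 292 and 571 CPM in controls S592 and S594. In knockout libraries that sum was 374 to 633 CPM. Knockout S598 and S599 carried thymocyte and T cell transcripts, with summed marker levels of 211 and 88.2 CPM, against 25.1 CPM in knockout S595 and 29.8 to 38.6 CPM in controls. All 3 knockout libraries carried airway transcripts, with 4 of 8 listed markers measured and summing to 62.0 to 83.0 CPM in knockout and 2.31 to 8.18 CPM in control libraries, and 2 of the 3 genes that limma called in the whole table were the airway genes Scgb1a1 and Bpifa1.

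Most of the ER genes stood at or below their control level in knockout arches. The log2 fold change was negative for 27 of the 35, where 52.2% of all genes were negative, and for 13 of the 14 folding chaperones, lectin chaperones and isomerases, but for 1 of the 5 transcription factors and effectors. None of the 35 genes passed an adjusted p of 0.05 by limma, where 0.021% of all genes did (0% lower). At an unadjusted p of 0.05, 11 of the 35 were lower and 0 higher, while 12% of all genes were lower and 8.04% higher. All 3 knockout values lay below all 3 control values for 13 of the 35 and above them for 2, against 14.2% and 11.3% of all genes. The median log2 fold change of the list was -0.21, and that of all genes -0.02. By class the median was -0.35 for folding chaperones, -0.38 for lectin chaperones and isomerases, -0.20 for sensors, 0.23 for transcription factors and effectors, -0.13 for degradation genes and -0.09 for translocation genes. The edgeR quasi-likelihood test on recovered reads called 0 of the 35 and 0% of all genes (10 of the 35 and 12.1% of all genes lower at an unadjusted p of 0.05). DESeq2 called 3 of the 35 lower and 0 higher (Sdf2l1, Pdia6 and Dnajb11), where it called 4.56% of all genes lower and 2.13% higher. With libraries weighted by how well they fit, limma called these genes and Manf lower (5.06% of all genes lower), and without control S591 it called Sdf2l1 and Pdia6 lower (3.29%).

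**Figure D1:**
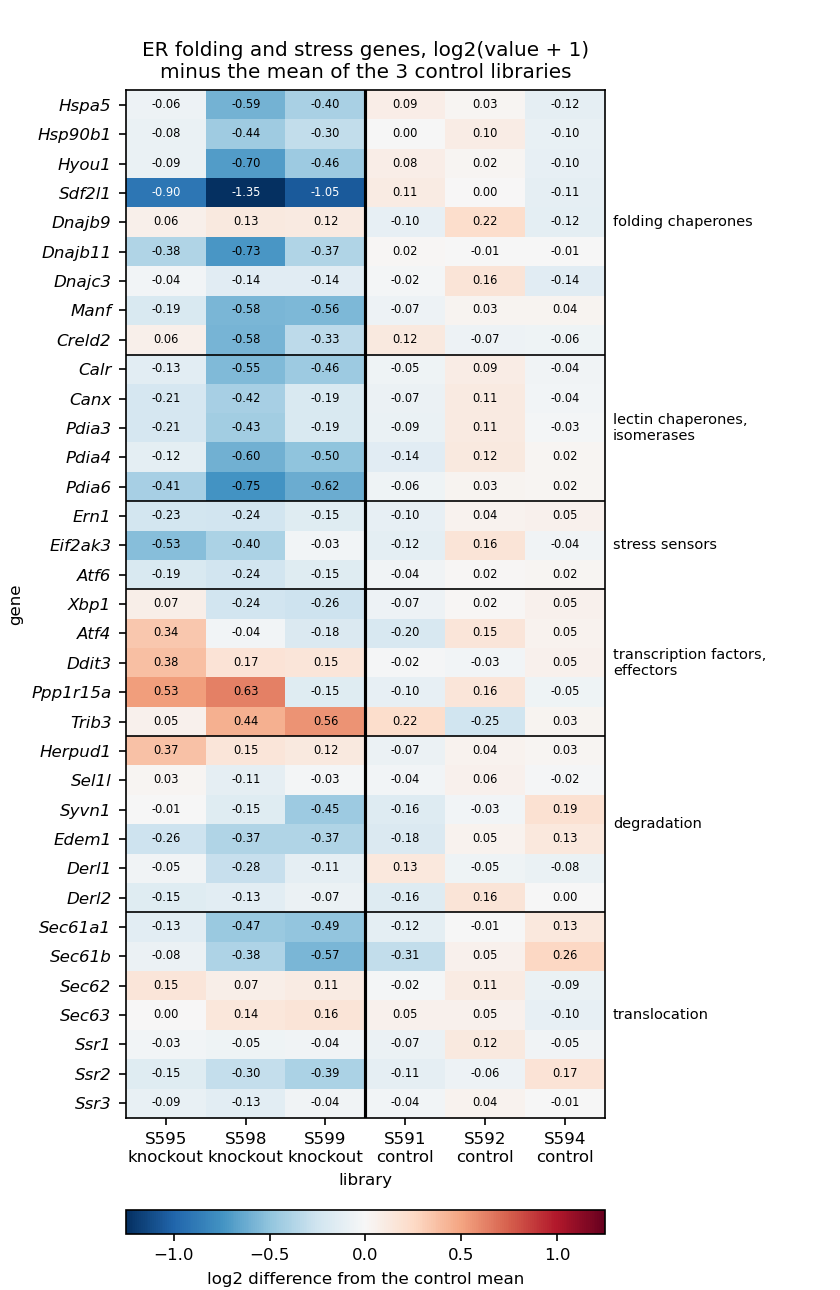
Each cell gives the log2(value + 1) of 1 gene (rows, by class) in 1 library (columns, knockout left of control) minus the mean of the 3 control libraries, in blue where lower and red where higher. The rows from Hspa5 to Pdia6 are mostly blue in the knockout columns, least so in S595, with Sdf2l1 the darkest, while Ddit3, Ppp1r15a, Trib3 and Herpud1 are mostly red.

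Among the folding chaperones, Sdf2l1 stood furthest from its control level. This small ER protein (ENSMUSG00000022769) works in complexes with the cochaperone ERdj3, the product of Dnajb11. Sdf2l1 had 13.8, 9.79 and 12.3 CPM in knockout S595, S598 and S599, against 28.7, 26.6 and 24.6 CPM in control S591, S592 and S594. The highest knockout value was thus well under the lowest control value, and the control mean was 2.23 times the knockout mean. The log2 fold change came to -1.10 (standard error 0.16, 95% interval -1.46 to -0.74), with an adjusted p of 0.107 by limma and 4.41e-05 by DESeq2, the range over all alternatives being 4.41e-05 to 0.475. Each library gave 78 to 198 reads of Sdf2l1. Dnajb11 (ENSMUSG00000004460) had 58.2, 45.4 and 58.4 CPM in knockout libraries, against 76.8, 75.6 and 75.5 CPM in control libraries. The control values of Dnajb11 were nearly level and all lay above the knockout values (log2 fold change -0.49, standard error 0.12, limma adjusted p = 0.121, DESeq2 adjusted p = 0.0378, range over alternatives 0.0378 to 0.507). Without control S591 the limma adjusted p of Sdf2l1 was 0.0342, while Dnajb11 was called in no fit that left out 1 library.

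The general chaperones BiP and GRP94 overlapped between the groups. Hspa5 (ENSMUSG00000026864) encodes BiP, the chaperone that also keeps the 3 sensors inactive, and it had 631, 438 and 497 CPM in knockout libraries, against 698, 671 and 607 CPM in control libraries. Knockout S595 lay inside the control range and the other two knockout libraries below it (log2 fold change -0.35, 95% interval -0.72 to 0.02, limma adjusted p = 0.276), and the log2 fold change was -0.49 without S595 and -0.23 without S598. An exact two-sided permutation test over the 6 libraries gave p = 0.2 for Hspa5, where 0.1 is the smallest that 3 against 3 allow. Hsp90b1, the gene of the ER chaperone GRP94, had 759, 589.5 and 649 CPM in knockout libraries, against 801, 858 and 751 CPM in control libraries. Here too S595 reached into the control range, and the log2 fold change was -0.28 (limma adjusted p = 0.327).

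The other folding genes ranged from Manf, with the groups apart, to Dnajb9, with a positive value. Manf, a secreted factor released on ER stress, averaged 49.8 ± 7.96 CPM in knockout and 67.5 ± 2.71 CPM in control arches (log2 fold change -0.44, limma adjusted p = 0.133). Hyou1, a large chaperone that exchanges the nucleotide of BiP, averaged 104 ± 22.9 CPM in knockout and 137 ± 9.02 CPM in control arches (log2 fold change -0.41, adjusted p = 0.207 by limma), and its groups overlapped. Creld2, a secreted stress protein, had a log2 fold change of -0.28, and without both S598 and S599 its sign turned (0.062). The BiP cochaperones Dnajc3 and Dnajb9 had log2 fold changes of -0.11 (95% interval -0.36 to 0.14) and 0.10 (-0.18 to 0.38), with overlapping groups. Dnajb9 was the 1 gene of the 9 with a positive log2 fold change.

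All 5 lectin chaperones and disulfide isomerases had negative log2 fold changes (52.2% of all genes did). For 4 of them all knockout values lay below the controls (14.2% of all genes). Pdia6 (ENSMUSG00000020571) encodes an isomerase that rearranges disulfide bonds and also acts on the sensor IRE1. It had 184, 145 and 158 CPM in knockout libraries, against 235, 250.2 and 248 CPM in control libraries. Every knockout value of Pdia6 lay below every control value, and the control mean was 1.505 times the knockout mean (log2 fold change -0.59, standard error 0.11, 95% interval -0.85 to -0.33). Its adjusted p was 0.107 by limma, 0.00206 by DESeq2 and 0.046 by limma without control S591, within a range of 0.00206 to 0.507 over all alternatives. Pdia4, another isomerase, had 131, 93.9 and 101 CPM in knockout libraries, against 129, 155 and 145 CPM in control libraries. Knockout S595 lay above control S591, so its groups overlapped (log2 fold change -0.41, limma adjusted p = 0.185). Calr and Canx, the genes of the lectins calreticulin and calnexin that hold glycoproteins until they are folded, averaged 587 ± 92.8 and 323 ± 27.2 CPM in knockout arches, against 760.1 ± 42.1 and 389.8 ± 27.3 CPM in control arches. Their log2 fold changes were -0.38 and -0.27, and that of their partner isomerase gene Pdia3 was -0.28 (limma adjusted p 0.21, 0.238 and 0.269), all with the knockout values below the control values.

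**Figure D2:**
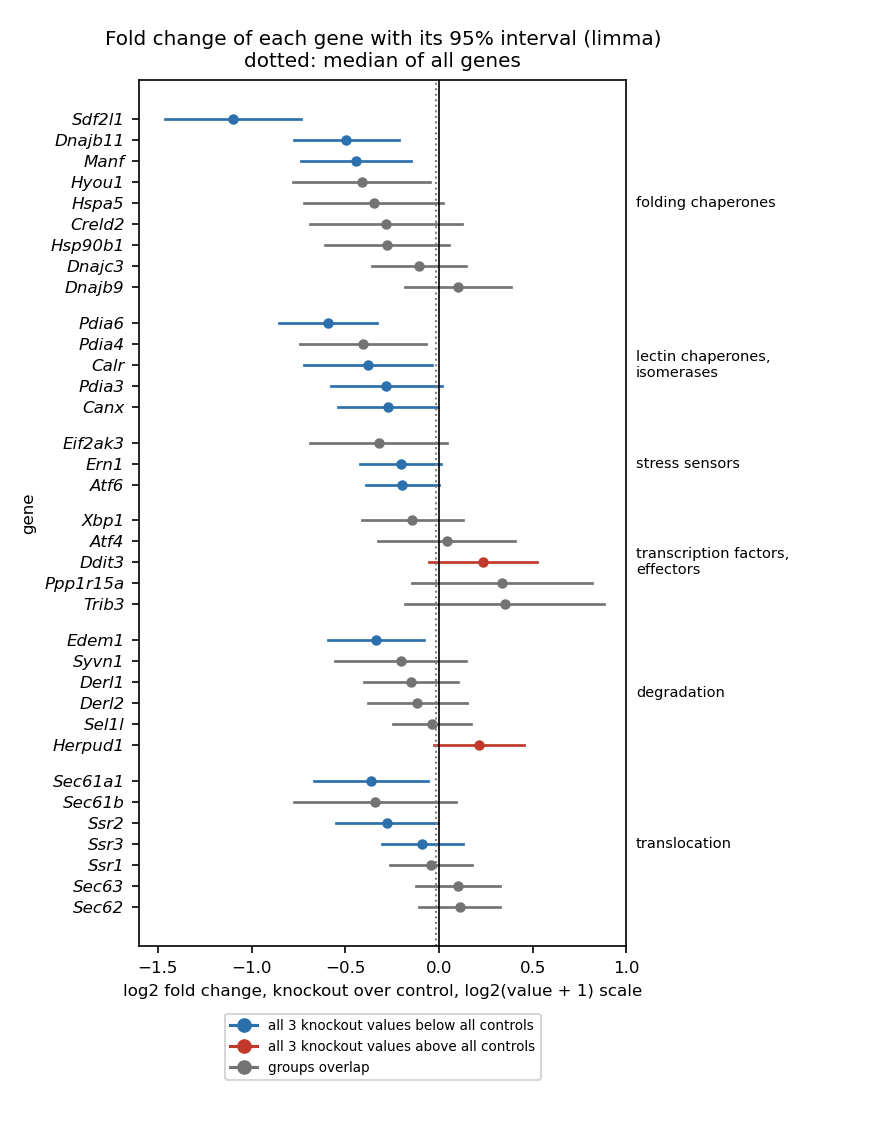
Points give the log2 fold change (knockout over control, log2(value + 1) scale, horizontal axis) of each gene, lines its 95% interval by limma, and colours whether all 3 knockout values lay below (blue) or above (red) all controls. Of the 13 blue points 7 are among the 14 folding chaperones, lectin chaperones and isomerases, with Sdf2l1 furthest out at -1.10. Ddit3 and Herpud1 are red. Of all genes, 14.2% lay below all controls and 11.3% above. The dotted line marks the median of all genes at -0.02.

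Promoters of some folding genes carry a short sequence through which ATF6 and XBP1 are known to act. It is shown here because 9 of the 29 genes with a promoter listed held it or its variant. The ER stress response element was searched as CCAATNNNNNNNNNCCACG and its variant, element II, as ATTGGNCCACG, on both strands of the 250 bases before each RefSeq gene start (build GRCm38.p6). Both motifs share the letters CCACG and can overlap, though no site shown matched both. A promoter was listed for 29 of the 35 genes, and 9 of them held an element, against 0.143% of all 32851 promoter windows. The element was found in 4 of 7 folding genes, 3 of 5 lectin chaperones and isomerases and 2 of 5 degradation genes with a promoter listed, and in 0 of 2 sensors, 0 of 5 effectors and 0 of 5 translocation genes. Shown with 40 bases on each side, strand 5′ to 3′ of the gene, are the folding and isomerase genes with the smallest p that held one, and Herpud1, which was chosen after its values were seen because it stood on the higher side. Capitals mark the element, which lies on the opposite strand in Calr.
Pdia6 (plus strand, chr12:17266451-17266549): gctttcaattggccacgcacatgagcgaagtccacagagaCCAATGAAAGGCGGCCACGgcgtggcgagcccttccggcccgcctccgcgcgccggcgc
Calr (minus strand, chr8:84847035-84847133): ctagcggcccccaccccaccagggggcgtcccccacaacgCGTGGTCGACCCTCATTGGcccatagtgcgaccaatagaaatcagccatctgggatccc
Canx (minus strand, chr11:50325760-50325858): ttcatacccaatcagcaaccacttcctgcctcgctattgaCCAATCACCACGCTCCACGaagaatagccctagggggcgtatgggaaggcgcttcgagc
Hspa5 (plus strand, chr2:34771985-34772083): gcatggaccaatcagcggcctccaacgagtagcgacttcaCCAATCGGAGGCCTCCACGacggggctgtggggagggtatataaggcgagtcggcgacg
Herpud1 (plus strand, chr8:94386337-94386427): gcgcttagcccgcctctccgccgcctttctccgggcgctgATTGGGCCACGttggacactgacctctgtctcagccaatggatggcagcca
Of the genes whose knockout values all lay below the controls, 3 of 9 with a promoter listed held an element, and of those with overlapping groups 5 of 18. Sdf2l1, which stood furthest from its control level, showed neither motif in this window. A match describes letters in a window and does not show binding.

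All 3 stress sensors had negative log2 fold changes (52.2% of all genes did), and none passed the test. Ern1 had 57.1, 56.7 and 60.5 CPM in knockout libraries, against 62.6, 69.3 and 69.7 CPM in control libraries. Atf6 had 88.8, 85.9 and 91.3 CPM in knockout libraries, against 98.9, 103 and 103 CPM in control libraries. The knockout values of Ern1 and Atf6 lay below every control value, by a small margin (log2 fold changes -0.20 and -0.20, limma adjusted p 0.273 and 0.25). Eif2ak3 had 23.5, 25.9 and 33.6 CPM in knockout libraries, against 31.5, 38.7 and 33.4 CPM in control libraries. Knockout S599 lay among the controls, so the groups of Eif2ak3 overlapped (log2 fold change -0.32, 95% interval -0.69 to 0.05, limma adjusted p = 0.305). These are levels of the sensors' messenger RNA, which do not measure whether the sensors were active.

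Downstream of the sensors, 4 of 5 genes had positive log2 fold changes (6828 of all 14298 genes did), and none passed the test. Xbp1, whose messenger RNA is spliced by IRE1, had 134, 108 and 106 CPM in knockout libraries, against 122, 129 and 132 CPM in control libraries. Knockout S595 was the highest of all 6 libraries and the other two knockout libraries were the lowest (log2 fold change -0.14, exact permutation p = 0.4, limma adjusted p = 0.533). Values per gene do not separate spliced from unspliced Xbp1. Atf4 had 172, 133 and 119.9 CPM in knockout libraries, against 118, 151 and 141 CPM in control libraries. Its groups overlapped almost fully (log2 fold change 0.04, 95% interval -0.32 to 0.41, exact permutation p = 0.9), and its sign turned without knockout S595 (-0.11) or control S591 (-0.06). ATF4 is regulated mainly through its translation, so this level does not measure the protein.

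Ddit3, Ppp1r15a and Trib3, all of the PERK branch, had positive log2 fold changes. Ddit3 (ENSMUSG00000025408) encodes CHOP, the stress factor tied to cell death, and had 24.6, 21.1 and 20.8 CPM in knockout libraries, against 18.4, 18.2 and 19.4 CPM in control libraries. All knockout values of Ddit3 lay above all control values, by a margin smaller than the spread among the knockout libraries (log2 fold change 0.23, 95% interval -0.05 to 0.52, limma adjusted p = 0.337). The exact two-sided permutation p for Ddit3 was 0.1, the smallest possible. Ppp1r15a, the gene of GADD34, which restores translation after PERK has slowed it, had 48.9, 52.7 and 30.3 CPM in knockout libraries, against 31.4, 37.6 and 32.4 CPM in control libraries. Knockout S599 lay below all controls and S595 and S598 above them (log2 fold change 0.34, limma adjusted p = 0.407). Its log2 fold change was 0.58 without S599 and 0.19 without S598. Trib3, a CHOP target that dampens kinase signalling, averaged 3.93 ± 0.866 CPM in knockout and 2.86 ± 0.627 CPM in control arches from 16 to 43 reads per library, with overlapping groups (0.35, 95% interval -0.18 to 0.88).

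**Figure D3:**
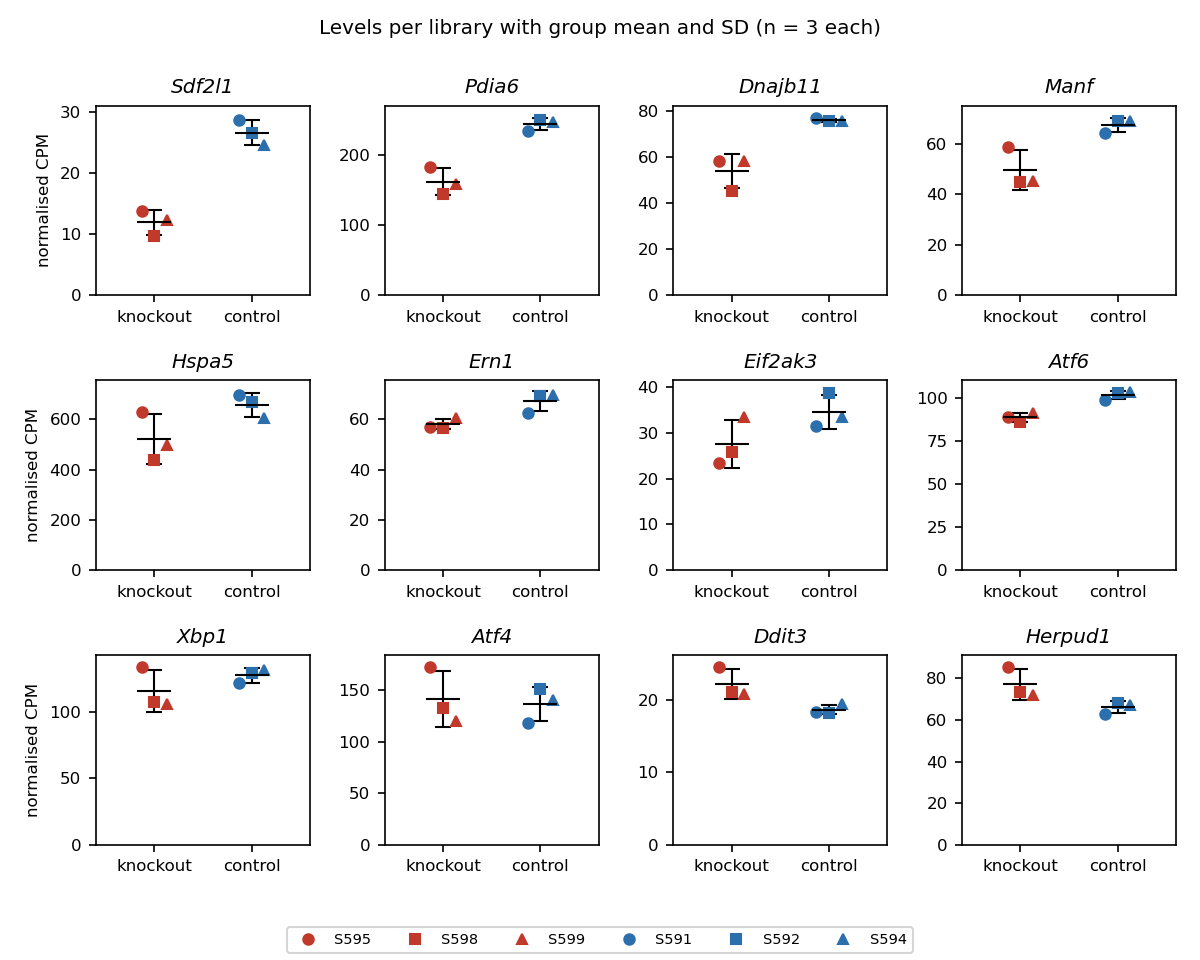
Points give the normalised CPM of 12 genes in each library (knockout left, control right, marker shapes for libraries), with the group mean and SD (n = 3 each) in black and vertical axes that start at 0. Sdf2l1, Pdia6, Dnajb11 and Manf show the widest gaps with knockout below control, Ddit3 and Herpud1 separate them the other way by a small margin, Ern1 and Atf6 separate with knockout below control, and Hspa5, Xbp1 and Atf4 overlap, with knockout S595 the highest knockout library.

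Of the 6 degradation genes, 1 (Edem1) had all knockout values below the controls and 1 (Herpud1) above them, against 14.2% and 11.3% of all genes. Edem1 (ENSMUSG00000030104) encodes a lectin that picks misfolded glycoproteins for removal and is known as an XBP1 target. It had 131, 121 and 121 CPM in knockout libraries, against 138, 162 and 172 CPM in control libraries. The knockout libraries lay close together and below the more scattered controls (log2 fold change -0.34, standard error 0.11, limma adjusted p = 0.16). Herpud1 (ENSMUSG00000031770), a membrane component of the degradation complex that is induced by several branches of the response, had 85.6, 73.5 and 71.96 CPM in knockout libraries, against 62.99, 68.2 and 67.3 CPM in control libraries. Its knockout values all lay above the controls, with S595 the highest (log2 fold change 0.21, 95% interval -0.03 to 0.45, limma adjusted p = 0.301). The ubiquitin ligase gene Syvn1, its partner Sel1l and the membrane genes Derl1 and Derl2 overlapped between groups, with log2 fold changes from -0.21 (Syvn1) to -0.04 (Sel1l). The 95% interval of Sel1l was -0.24 to 0.17.

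Among translocation genes the pore subunit and parts of the translocon-associated complex lay below their control levels. Sec61a1 (ENSMUSG00000030082), the gene of the pore-forming subunit, had 189, 149 and 146 CPM in knockout libraries, against 189.8, 206 and 226 CPM in control libraries. Knockout S595 lay just under control S591 and the other two well under (log2 fold change -0.36, limma adjusted p = 0.186). Ssr2, which encodes a part of that complex, had 57.3, 51.6 and 48.2 CPM in knockout libraries, against 58.9, 60.96 and 71.7 CPM in control libraries. Again S595 came within 2 CPM of S591 (log2 fold change -0.28, limma adjusted p = 0.24). Sec61b had a log2 fold change of -0.34 with overlapping groups, Ssr3 of -0.09 with the groups narrowly apart, and Ssr1 of -0.04 (95% interval -0.26 to 0.18). Sec62 and Sec63, which assist entry after translation, had 0.11 and 0.10, with intervals of -0.11 to 0.33 and -0.12 to 0.32.

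The knockout libraries did not contribute equally. Of the 14 chaperone, lectin and isomerase genes, 13 lay below all 3 controls in S598, 13 in S599 and 7 in S595, while 34.9%, 31.5% and 30.7% of all genes did so in these libraries. S598 was the lowest of the 6 libraries for 18 of the 35 genes, S599 for 7 and S595 for 1, and the control S592 was the highest for 13. The lowest and highest library were not counted over all genes. Of all genes, 30.7% also lay above all 3 controls in S598, 28.8% in S599 and 26.6% in S595. S598 and S599, the 2 knockout libraries with most thymocyte transcripts (211 and 88.2 CPM, against 25.1 CPM in S595), were also left out together. S595 was then set alone against the controls and assumed to vary like them. The median was -0.080 for folding chaperones and -0.21 for lectin chaperones and isomerases. The part of thymocyte transcripts in the chaperone values was not tested. The folding median was -0.49 without S595 and -0.23 without S598.

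Markers of macrophages and of fibroblasts, which secrete much of the matrix, were also at lower levels in knockout libraries. All 12 macrophage markers had negative log2 fold changes, where 52.2% of all genes did, with a median of -1.10. By limma 0 passed the test, 12 were lower unadjusted (12% of all genes) and DESeq2 called 10 lower (4.56%). Their summed level was 2523 to 5852 CPM in knockout and 5874 to 9742 CPM in control libraries. All 9 fibroblast markers were negative as well (median -0.50), summing to 8858 to 12170 CPM in knockout and 12438 to 20352 CPM in control libraries. By limma 0 of them passed the test, 4 were lower unadjusted (12% of all genes) and DESeq2 called 3 lower (4.56%). The knockout values lay below all controls for 4 of the 9 (14.2% of all genes), and the groups overlapped for the other 5. All 8 smooth muscle markers were positive (6828 of all 14298 genes were), with a median of 0.63. They summed to 20897 to 29096 CPM in knockout and 11969 to 20839 CPM in control libraries. Plasma cells are rich in ER, and their markers overlapped, with 6 of 8 measured, at 96.2 to 214 CPM in knockout and 133 to 247 CPM in control libraries. About the mean of the libraries, the median of the folding chaperones was 0.03, -0.41 and -0.19 in knockout S595, S598 and S599, against 0.26, 0.23 and 0.09 in control S591, S592 and S594. The fibroblast median was -0.14, -0.54 and -0.37 in the same knockout libraries, against -0.01, 0.42 and 0.57 in the control libraries. The macrophage median was -0.53, -0.97 and -0.09 in the knockout libraries, against 0.14, 0.64 and 0.83 in the control libraries. Among the knockout libraries S598 was the lowest on all 3 lists, and S595 was the highest for folding chaperones and fibroblast markers and S599 for macrophage markers. Among the controls S594 was the lowest for folding chaperones and the highest for fibroblast and macrophage markers. In each of the other ER classes S591 was the lowest control, as for both marker lists. For lectin chaperones and isomerases the medians were 0.06, 0.28 and 0.15 in control S591, S592 and S594. The part of these cell types in the chaperone values was not tested, and in whole tissue fewer cells of a type and less RNA per cell cannot be told apart.

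**Figure D4:**
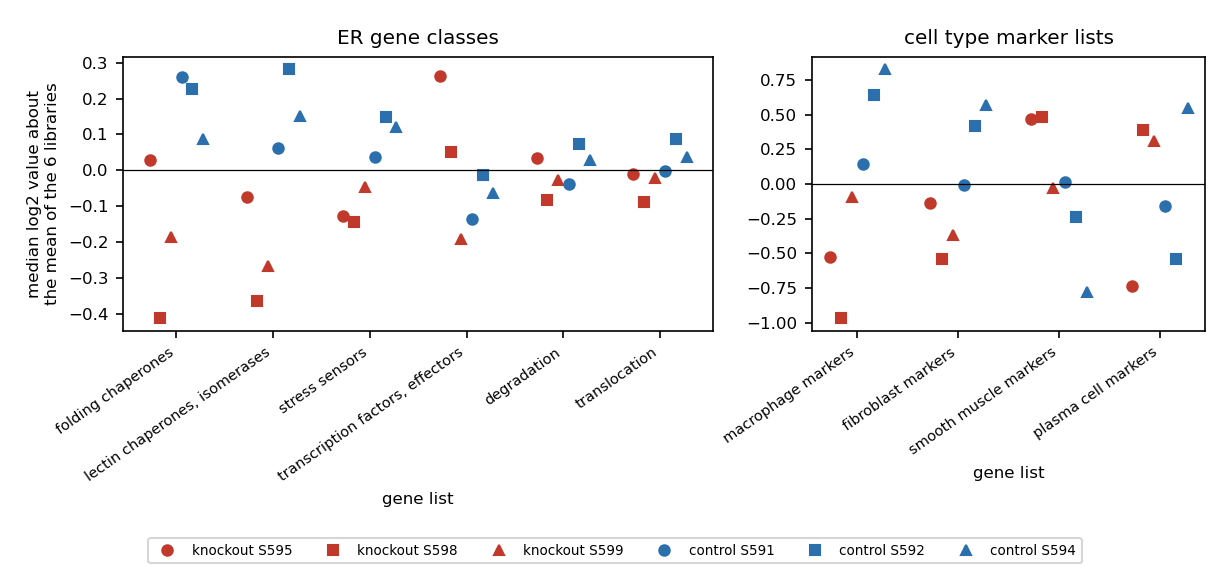
Points give, for each library (red knockout, blue control), the median over a gene list of the log2(value + 1) about each gene's mean over the 6 libraries, for the ER classes (left) and for cell type marker lists (right, wider scale). Knockout S598 is lowest for folding chaperones (-0.41) and for macrophage markers (-0.97), and S595 is the highest knockout library for folding chaperones (0.03) and fibroblast markers (-0.14), and S599 for macrophage markers (-0.09). Control S594 is the lowest control for folding chaperones (0.09) and the highest for fibroblast (0.57) and macrophage markers (0.83). In each of the other ER classes S591 is the lowest control, as for fibroblast (-0.01) and macrophage markers (0.14).

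The wider secretory and stress machinery was described from 5 further lists with 95 of 96 genes measured. Negative log2 fold changes were seen for 71 of them (52.2% of all genes), 31 had all knockout values below the controls (14.2% of all genes) and 4 above (11.3%), and the median was -0.16. By limma 0 of the 95 passed at an adjusted p of 0.05, and at an unadjusted p of 0.05 there were 23 lower and 1 higher (12% and 8.04% of all genes). DESeq2 called 3 lower (Asns, Os9 and Eif2ak2) and 1 higher (Vldlr), where it called 4.56% of all genes lower and 2.13% higher, so the share lower was not above that of all genes. Among 22 other folding genes the median was -0.20, with Erp29, an ER folding factor, at 59.8 ± 4.92 CPM in knockout and 82.5 ± 10.9 CPM in control arches, and Cnpy2 at 41.96 ± 2.22 CPM in knockout and 54.2 ± 3.82 CPM in control arches. Among 14 degradation genes the median was -0.08, and the lectin gene Os9, which delivers misfolded glycoproteins to the Sel1l complex, averaged 108 ± 8.21 CPM in knockout and 148 ± 15.9 CPM in control arches (limma adjusted p = 0.121, DESeq2 0.0462, range over alternatives 0.0391 to 0.53). Edem2, a mannosidase-like relative of Edem1, had a log2 fold change of -0.31. Among 23 translocation and glycosylation genes the median was -0.16, with Ostc, of the oligosaccharyltransferase, at -0.35 and the signal peptidase gene Spcs2 at -0.32.

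Listed targets of ATF4 and CHOP mostly had negative log2 fold changes, 16 of 21 measured (52.2% of all genes), and their median was -0.26. Asns, the asparagine synthetase gene and a well-known ATF4 target, averaged 11.2 ± 4.63 CPM in knockout and 22.04 ± 3.15 CPM in control arches with the groups apart (log2 fold change -0.97, limma adjusted p = 0.129, DESeq2 0.0394, range over alternatives 0.0394 to 0.475). Vldlr, a lipoprotein receptor gene also known to respond to ATF4, stood the other way, at 208 ± 34.6 CPM in knockout and 116 ± 42.3 CPM in control arches (0.88, limma adjusted p = 0.132, DESeq2 0.0259, range over alternatives 0.0259 to 0.651). Among 15 other regulators of the response the median was -0.14. Eif2ak2, which shares its substrate with PERK and is also an interferon-induced gene, averaged 36.3 ± 3.62 CPM in knockout and 51.5 ± 1.504 CPM in control arches (-0.50, limma adjusted p = 0.11, DESeq2 0.027, range over alternatives 0.027 to 0.475). Creb3l1, a relative of ATF6 active in matrix-secreting cells, had a log2 fold change of -0.38 (limma adjusted p = 0.16).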

How the data were processed

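PolyA RNA from 6 aortic arches (RNA integrity at least 7.9) was sequenced after TruSeq preparation, per the labels' protocols. Bowtie 0.12.7, RSEM 1.16, cutadapt 1.6.1, CASAVA 1.8, edgeR, limma and build NCBIM37 are named, with no roles, per the submitters' processing notes. Which gene annotation and which strand were used in counting is not given in the sources used here, so overlapping genes cannot be told apart. What the authors deposited is a normalised signal for every gene in every library. From the values, each is (reads + 0.5) in CPM of a scaled library size, and 100% gave whole reads at a tolerance of 0.01. The 14298 genes are those listed, and 13828 identifiers matched a symbol.

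The main test was limma 3.58.1 (R 4.3.3) with an intensity trend on log2(value + 1), all 6 libraries, genotype as the factor, at least 1 CPM in at least 3 libraries (0 genes removed), and an adjusted p threshold of 0.05. Other settings tried were the pseudocount, the filter, the scaling, the variance model, each library left out in turn, and edgeR 4.0.16, DESeq2 1.42.0 and limma-voom on recovered reads. The functions were tested on simulated data.

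The members, classes, further lists and marker lists were chosen with earlier results of these data known. All members are reported. Library values are given for the 2 genes of each class with the smallest p and for Hspa5, Hsp90b1, Xbp1, Atf4, Ddit3, Ern1, Eif2ak3 and Atf6, and of each further list the 2 genes with the smallest p are named. Thymocyte, airway and adipocyte marker lists also were measured. Of these, 10 of 10 measured thymocyte and 4 of 4 measured airway and thyroid markers had positive log2 fold changes (medians 1.17 and 2.65). Adipocyte markers had a median of -0.04 over 6, and their summed level was highest in control S591 (1448 CPM). Read numbers speak to counting error alone, as no molecular identifiers were used. Promoter sequences are RefSeq's, on GRCm38.p6.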

Additional observations from a re-analysis of the deposited data

How the results depend on the processing

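Of the 35 genes, 30 kept the sign of their log2 fold change in every alternative that gave a value, 18 for each except Trib3, which a mean of at least 5 CPM removes. The sign of the other 5 turned in at least 1 alternative. S598 and S599, the 2 knockout libraries with most thymocyte transcripts, were left out together (S595 alone, its spread taken from the controls). Creld2 (from -0.28 to 0.062) and Xbp1 (from -0.14 to 0.074) then turned positive. Sel1l turned with libraries centred on their median (0.027) and with S595 alone (0.026), Ssr1 with that centring (0.020), and Atf4 with array weights (-0.058). With 1 library left out, Atf4 ran from -0.11 to 0.15 and Ssr1 from -0.079 to 0.016. Array weights, which give libraries that fit poorly less weight, called 4 of the 35 lower (Sdf2l1, Pdia6, Dnajb11 and Manf), 6 of the 95 further genes and 1011 of all genes. DESeq2 called 3, 4 and 900. Leaving out 1 library gave 0 to 2, 0 to 2 and 0 to 671, the highest each time without control S591. Of all genes, limma called 3 as reported, 0 with a pseudocount of 0.5, with a mean of at least 5 CPM, by edgeR, by limma-voom and with S595 alone, 1 without a trend, and 10 at an adjusted p of 0.10. With S595 alone the medians were -0.080 (35 genes), -0.080 (folding), -0.21 (lectin and isomerase), -0.028 (degradation), -0.053 (95 further genes), -0.060 (other folding), 0.021 (other degradation) and -0.024 (other translocation). With libraries centred on their median, a shift of all genes from -0.02 to 0.05, medians were -0.14 (sensors), -0.069 (degradation), -0.025 (translocation) and -0.080 (other regulators, -0.088 after quantile normalisation and -0.20 to -0.086 with 1 library left out). The cause of these differences was not tested. No paired analysis was possible because the columns carry no replicate numbers.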

Other observations

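Chosen after their values were seen, 2 genes of secretory and amino acid metabolism stood further from the controls than most of the listed genes. Fkbp11, a folding enzyme of the ER known from antibody-secreting cells, averaged 2.82 ± 1.26 CPM in knockout and 6.71 ± 2.31 CPM in control arches (log2 fold change -1.02, limma adjusted p = 0.145). Slc7a11, the cystine transporter gene induced by ATF4 and NRF2, averaged 5.34 ± 2.600 CPM in knockout and 12.4 ± 4.99 CPM in control arches (-1.09, adjusted p = 0.157), and its partner chain Slc3a2 had a log2 fold change of -0.51. In the plasma cell list the surface proteoglycan gene Sdc1, which other cell types express too, averaged 45.5 ± 12.1 CPM in knockout and 113 ± 42.6 CPM in control arches, and the factor Prdm1 3.03 ± 1.38 CPM in knockout and 5.802 ± 0.349 CPM in control arches, both with the groups apart. The antibody chain gene Jchain overlapped, at 16.6 ± 10.6 CPM in knockout and 11.2 ± 8.601 CPM in control arches. Ighm, another such gene, overlapped at 59.5 ± 51.9 CPM in knockout and 27.7 ± 5.84 CPM in control arches. Igkc overlapped too, at 27.8 ± 13.2 CPM in knockout and 17.5 ± 12.6 CPM in control arches. So did Irf4 (log2 fold change -0.15). Of the 6 measured genes of this list, 3 thus stood lower and 3 higher, and the list median was 0.17. None of these genes passed the test by limma, and DESeq2 called Sdc1 lower (adjusted p = 0.00329) and none of the others.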
